A study of Rattus norvegicus with 12 samples.

Results

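The Krüppel-like factors described here are 10 transcription factor genes, Klf2, Klf3, Klf4, Klf5, Klf6, Klf7, Klf9, Klf10, Klf11 and Klf13. They were taken by gene name from a table of 28727 named genes, and all 10 had enough counts to be tested among 14669 genes. The table comes from INS-1 832/13 cells, an insulin-secreting rat insulinoma line, transduced with an adenovirus for GFP, the control, or for ChREBPβ, and cultured in 2 mM or 11 mM glucose for 48 h. Each of the 4 groups (GFP at 2 mM, GFP at 11 mM, ChREBPβ at 2 mM and ChREBPβ at 11 mM) had 3 libraries, named a, b and c, and all 12 libraries came from virus-treated cells. The study describes its expression values as averages over independent experiments, but the labels do not tie a library to a culture or a day, and p-values measure the spread between these libraries. The ChREBPβ virus carried a tagged mouse sequence, and a single clonal tumour line stands for the β-cell.

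Krüppel-like factors share zinc fingers at the carboxyl end of the protein, which bind GC-rich and CACCC elements in promoters, and they differ in their amino-terminal parts. Klf2, Klf4, Klf5, Klf6 and Klf7 mostly activate genes and recruit acetyltransferases such as p300 and CBP. Klf3 is a repressor that binds the corepressor CtBP, and Klf9, Klf10, Klf11 and Klf13 recruit the corepressor Sin3A. Several of these genes are quickly induced by outside signals: Klf2 and Klf4 by the MEK5 to ERK5 to MEF2 cascade, Klf10 and Klf11 by TGFβ, and Klf9 by glucocorticoid and thyroid hormone. ChREBP is a glucose-responsive factor that binds pairs of E-boxes, called carbohydrate response elements, and ChREBPβ is its short, highly active isoform. Klf10 is a known ChREBP target in hepatocytes, and Klf11 binds the insulin promoter and has been linked to maturity-onset diabetes of the young.

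The promoter letters are shown for 3 members because ChREBP, Sp and Krüppel-like proteins bind E-box, GC-box and CACCC letters. Klf11 rose with both ChREBPβ and glucose, Klf6 also held an E-box in its promoter but was not called changed in any comparison, and Klf3 fell with glucose. RefSeq promoter entries (assembly GRCr8) were matched by symbol for 7 of the 10 members. Klf2, Klf10 and Klf13 had none. The 250 bases before the annotated start are printed 5′ to 3′ on the strand of the gene, and capitals mark E-boxes (CACGTG) and GC boxes (GGGCGG on either strand).
Klf11, chr6:47014198-47014447, plus strand: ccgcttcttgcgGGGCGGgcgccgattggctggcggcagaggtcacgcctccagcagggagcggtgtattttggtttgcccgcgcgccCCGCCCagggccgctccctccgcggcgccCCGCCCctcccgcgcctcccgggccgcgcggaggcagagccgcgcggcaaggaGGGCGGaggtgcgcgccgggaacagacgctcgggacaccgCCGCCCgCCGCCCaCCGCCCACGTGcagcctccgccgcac
Klf6, chr17:69458479-69458728, minus strand: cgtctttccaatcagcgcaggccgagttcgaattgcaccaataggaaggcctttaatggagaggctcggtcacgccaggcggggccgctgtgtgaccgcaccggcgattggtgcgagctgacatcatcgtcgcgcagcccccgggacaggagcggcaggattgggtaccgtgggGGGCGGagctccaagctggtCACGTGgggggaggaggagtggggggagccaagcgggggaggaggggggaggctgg
Klf3, chr14:43850827-43851076, minus strand: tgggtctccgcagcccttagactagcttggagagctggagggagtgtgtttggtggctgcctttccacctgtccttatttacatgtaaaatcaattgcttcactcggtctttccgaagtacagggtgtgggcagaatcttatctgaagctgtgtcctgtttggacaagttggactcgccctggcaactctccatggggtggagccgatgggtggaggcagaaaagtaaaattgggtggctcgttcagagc
In the Klf11 window, G and C made up 79.2% of the letters and the GC box occurred 7 times, and the last GC box shared a base with the single E-box. The Klf6 window (67.2% G and C) held 1 E-box and 1 GC box, and the Klf3 window (52% G and C) held neither.

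Across all 33469 promoter windows of that length in the same table, searched on both strands, 5.59% held the E-box and 30.5% the GC box. Of the 7 members with an entry, 2 held the E-box (Klf6 and Klf11) and 3 the GC box (Klf6, Klf7 and Klf11). The CACCC box (CACCC), in 49.2% of all windows, occurred 4 times in the Klf3 window, 2 times each in those of Klf5 and Klf7, and 1 time in that of Klf9. The full carbohydrate response element, found in 0.0598% of all windows, was in none of the 7. The cAMP response element (TGACGTCA, in 1.59% of all windows) and the MEF2 site (in 2.96%) were in none of the 7 either, and the CArG box that binds serum response factor (in 1.5%) was in that of Klf6. These matches describe letters in short windows and no binding was measured here.

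Depth, labels and cell type were checked first. Total counts per library ranged from 25754488 (GFP at 2 mM, library a) to 60531215 (ChREBPβ at 11 mM, library a). Depth differed between the groups. The medians were 30197425 with GFP at 2 mM, 44398404 with GFP at 11 mM, 57313995 with ChREBPβ at 2 mM and 59249045 with ChREBPβ at 11 mM. At 11 mM every ChREBPβ library was deeper than every GFP library. Replicate libraries of each group differed from one another beyond sampling noise. Txnip, a strong ChREBP target, was higher with ChREBPβ at 2 mM by 4.12 on the log2 scale, and the liver-type pyruvate kinase gene Pklr by 1.69. Rat Mlxipl, the gene for ChREBP, was called lower there (log2 -0.33, edgeR adjusted p = 2.03e-05). At 11 mM the ChREBPβ differences were smaller, 0.93 for Txnip and 1.08 for Pklr, and Mlxipl was not called (-0.14). In GFP-treated cells, 11 mM glucose against 2 mM raised Txnip by 3.74. The counts do not show the mouse transgene, so the groups stand as labelled. All 8 β-cell markers examined were above 1 CPM (a counts-per-million level). Their summed level ranged from 14540 to 16420 CPM with GFP at 2 mM, from 11070 to 12120 with GFP at 11 mM, from 6111 to 6260 with ChREBPβ at 2 mM and from 5190 to 5568 with ChREBPβ at 11 mM. Ins1 made up most of this sum, and Slc2a2, the glucose transporter gene, went the other way, from 437 CPM on average with GFP at 2 mM to 618 and 675 CPM with ChREBPβ at 2 and 11 mM. The part of these marker changes in any member's change was not tested. Endothelial markers, which matter for Klf2, summed to at most 3.09 CPM, with the highest values in the GFP groups, and leukocyte markers to at most 1.22 CPM. Fibroblast markers summed to at most 8.81 CPM, nearly all of it Pdgfra (up to 8.78 CPM), with Dcn and Lum at 0. Acinar markers summed to at most 6.78 CPM, nearly all of it Ctrb1 (up to 6.71 CPM), with Prss1 at 0. Pecam1 of the endothelial list and Col1a2 of the fibroblast list had no entry and were not searched.

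Levels below are counts-per-million values scaled by edgeR's TMM factors, and they give each gene relative to the bulk of the RNA. In such bulk samples, fewer cells of a type and less RNA per cell cannot be told apart. Levels of different genes are not compared, since counts also depend on transcript length. A gene was called changed with an edgeR quasi-likelihood Benjamini-Hochberg adjusted p under 0.05 over all 14669 genes and a change of at least 1.2-fold (0.26 on the log2 scale). With ChREBPβ at 2 mM glucose, 3 of the 10 members were called higher, Klf2, Klf10 and Klf11, and 0 lower, where 21.0% of all genes tested were higher and 23.2% lower. At 11 mM the same 3 members were called higher and 0 lower, against backgrounds of 14.3% higher and 19.1% lower. In GFP-treated cells, 11 mM glucose against 2 mM again raised Klf2, Klf10 and Klf11 and lowered Klf3, against 10.2% of all genes higher and 10.0% lower. In ChREBPβ-treated cells the same rise in glucose called 3 members, Klf2 and Klf11 higher and Klf3 lower, against 3.87% of all genes in either direction. With 10 members, chosen with earlier results known, nothing particular to the family is read from these shares. The ChREBPβ comparison at 2 mM and the glucose comparison in GFP-treated cells share the GFP libraries at 2 mM, so these sets of values are not independent.

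The median log2 fold change of the 10 members stayed near that of all genes: 0.01 against -0.02 with ChREBPβ at 2 mM, 0.10 against -0.02 at 11 mM, 0.02 against 0.00 with glucose in GFP-treated cells and 0.06 against 0.00 with glucose in ChREBPβ-treated cells. A few members moved and the middle of the family did not. In the ChREBPβ comparison at 2 mM the calls moved with the scaling. When library totals replaced TMM, Klf3, Klf4 and Klf5 were also called lower there, which makes 3 higher and 3 lower. Under that scaling 6617 of the 14669 genes were called at 2 mM, 33.2% of them increases, against 6476 and 47.5% under TMM. At 11 mM 5230 genes were called, 29.3% of them increases, against 4904 and 42.9% under TMM.

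**Figure D1:**
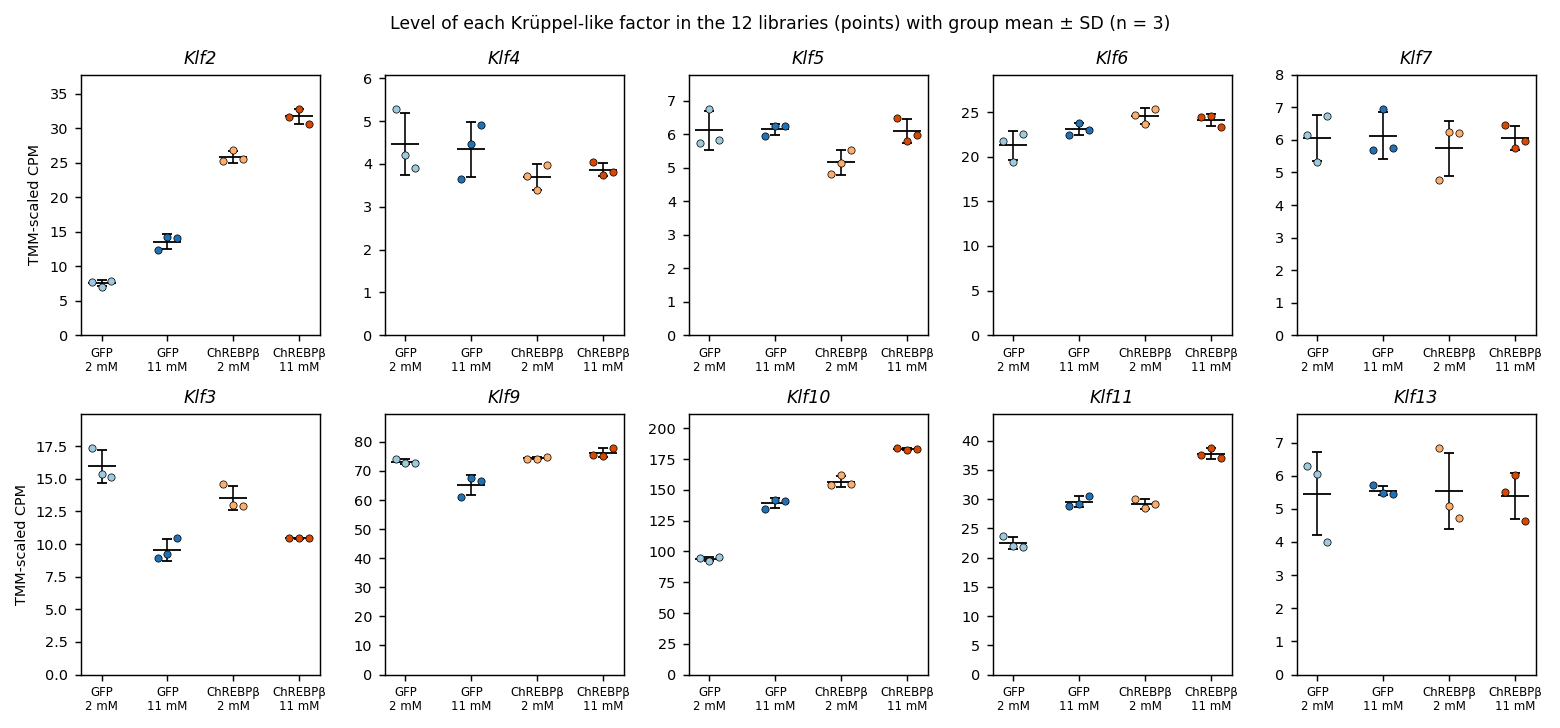
TMM-scaled CPM of each factor in the 12 libraries, by virus and glucose, with axes from 0 (points, libraries a, b and c; bars, mean ± SD, n = 3). Klf2, Klf10 and Klf11 climb from GFP at 2 mM to ChREBPβ at 11 mM, Klf3 is lower at 11 mM glucose under either virus, and the points of Klf4, Klf7 and Klf13 overlap across groups.

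Klf2, an inducible activator best known from endothelium, T cells and adipocyte precursors, had the largest change of the 10 members with ChREBPβ at either glucose level. It measured 7.72, 7.06 and 7.85 CPM in the GFP libraries at 2 mM and 12.4, 14.2 and 14.1 CPM in the GFP libraries at 11 mM. With ChREBPβ it was at 25.2, 26.8 and 25.5 CPM at 2 mM and at 31.6, 32.8 and 30.7 CPM at 11 mM. The 4 groups followed each other without overlap, GFP at 2 mM lowest and ChREBPβ at 11 mM highest. ChREBPβ raised Klf2 3.44-fold at 2 mM (log2 1.78, SE 0.07, edgeR adjusted p = 6.48e-14) and 2.34-fold at 11 mM (log2 1.23, SE 0.07, edgeR adjusted p = 4.8e-12). Glucose raised it 1.80-fold in GFP-treated cells (log2 0.85, SE 0.08, edgeR adjusted p = 1e-07) and 1.23-fold in ChREBPβ-treated cells (log2 0.29, SE 0.06, edgeR adjusted p = 0.00518). ChREBPβ at 2 mM was itself above GFP at 11 mM by 0.93 on the log2 scale (edgeR adjusted p = 5.57e-10), so each neighbour in the order differed from the next.

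The other activator-type members moved little. Klf6, a growth-restraining factor induced by injury, measured 21.8, 19.5 and 22.6 CPM in the GFP libraries at 2 mM and 24.6, 23.7 and 25.4 CPM in the ChREBPβ libraries at 2 mM. These groups did not overlap, but the difference of 0.21 (log2, SE 0.06, edgeR adjusted p = 0.00797) was under 1.2-fold, and it missed the adjusted p without GFP library b (0.15, edgeR adjusted p = 0.0686) and with library totals (0.11, edgeR adjusted p = 0.147). At 11 mM glucose Klf6 lay between 22.4 and 23.8 CPM with GFP and between 23.3 and 24.6 CPM with ChREBPβ, and these groups overlapped.

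Klf4, a reprogramming factor that often acts beside Klf2, did not follow it. Its GFP libraries held 5.29, 4.20 and 3.91 CPM at 2 mM and 3.65, 4.47 and 4.91 CPM at 11 mM. Its ChREBPβ libraries held 3.72, 3.39 and 3.98 CPM at 2 mM and 4.04, 3.74 and 3.82 CPM at 11 mM. All 4 groups overlapped. Its log2 fold change with ChREBPβ at 2 mM had a 95% interval from -0.57 to 0.03, which leaves out any increase of the size seen for Klf2. At 11 mM the interval ran from -0.45 to 0.12. Klf5, a factor of proliferating epithelium, lay between 5.73 and 6.76 CPM with GFP at 2 mM and between 4.80 and 5.53 CPM with ChREBPβ at 2 mM. Those 2 groups of Klf5 did not overlap, yet the difference did not pass the test (log2 95% interval -0.46 to -0.02, edgeR adjusted p = 0.0611). With library totals in place of TMM, the log2 difference at 2 mM was -0.37 for Klf4 (edgeR adjusted p = 0.0368) and -0.34 for Klf5 (edgeR adjusted p = 0.00995), both then called. Klf7, a factor of developing neurons, ranged from 4.76 to 6.96 CPM over the 12 libraries, and its groups overlapped in every comparison.

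Klf3, the CtBP-binding repressor, was the member that fell with glucose. It measured 17.4, 15.3 and 15.1 CPM in the GFP libraries at 2 mM and 8.94, 9.24 and 10.5 CPM in the GFP libraries at 11 mM. With ChREBPβ it was at 14.6, 13.0 and 12.9 CPM at 2 mM and at 10.4, 10.4 and 10.5 CPM at 11 mM. Every library at 11 mM lay below every library at 2 mM, whatever the virus. Glucose lowered Klf3 in GFP-treated cells (log2 -0.74, SE 0.08, edgeR adjusted p = 1.32e-06) and in ChREBPβ-treated cells (log2 -0.36, SE 0.08, edgeR adjusted p = 0.00732). The effect of ChREBPβ on Klf3 was smaller. At 2 mM it was -0.24 (SE 0.08, edgeR adjusted p = 0.014), under the minimum fold, though it passed that fold without GFP library b (-0.27), without GFP library c (-0.28), without ChREBPβ library a (-0.29) and with library totals (-0.34). The adjusted p was lost without GFP library a (-0.18, edgeR adjusted p = 0.0851), ChREBPβ library b (-0.22, 0.0595) or ChREBPβ library c (-0.21, 0.0629). At 11 mM the groups overlapped, with a 95% interval from -0.04 to 0.30. ChREBPβ at 2 mM was above GFP at 11 mM by 0.49 (log2, edgeR adjusted p = 6.77e-05). The order of Klf3 levels was therefore GFP at 2 mM, ChREBPβ at 2 mM, ChREBPβ at 11 mM and GFP at 11 mM, with the last pair not told apart by the test and the first pair under 1.2-fold.

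Klf10, the first TGFβ-inducible early gene, rose in smaller steps than Klf2 with little spread. It measured 94.3, 92.2 and 95.1 CPM in the GFP libraries at 2 mM and 134.6, 142.1 and 141.3 CPM in the GFP libraries at 11 mM. With ChREBPβ it was at 153.6, 162.0 and 154.8 CPM at 2 mM and at 184.2, 182.6 and 183.3 CPM at 11 mM. As for Klf2, the groups did not overlap and ChREBPβ at 11 mM was highest. ChREBPβ raised Klf10 1.67-fold at 2 mM (log2 0.74, SE 0.04, edgeR adjusted p = 4.1e-12) and 1.32-fold at 11 mM (log2 0.40, SE 0.04, edgeR adjusted p = 5.12e-08). Glucose raised it 1.48-fold in GFP-treated cells (log2 0.57, SE 0.04, edgeR adjusted p = 2.48e-09). In ChREBPβ-treated cells glucose gave 0.23 (log2, SE 0.04, edgeR adjusted p = 0.00094), under the minimum fold, as was the step of 0.17 from GFP at 11 mM to ChREBPβ at 2 mM (edgeR adjusted p = 0.00141).

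Klf11, the second TGFβ-inducible early gene and the member tied to insulin gene regulation, rose by nearly equal steps with virus and with glucose. It measured 23.7, 22.0 and 21.8 CPM in the GFP libraries at 2 mM and 28.8, 29.2 and 30.6 CPM in the GFP libraries at 11 mM. With ChREBPβ it was at 30.0, 28.4 and 29.1 CPM at 2 mM and at 37.5, 38.8 and 37.0 CPM at 11 mM. GFP at 2 mM was lowest, ChREBPβ at 11 mM was highest, and the middle groups overlapped. ChREBPβ raised Klf11 by 0.37 at 2 mM (log2, SE 0.06, edgeR adjusted p = 8.9e-06) and by 0.35 at 11 mM (SE 0.05, edgeR adjusted p = 1.09e-05). Glucose raised it by 0.39 in GFP-treated cells (edgeR adjusted p = 1.63e-05) and by 0.37 in ChREBPβ-treated cells (edgeR adjusted p = 0.000113). ChREBPβ at 2 mM and GFP at 11 mM differed by -0.02, with a 95% interval from -0.13 to 0.09.

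Klf9 and Klf13, the remaining Sin3A-binding members, were never called. Klf9, a hormone-responsive gene, measured 74.2, 72.8 and 72.7 CPM in the GFP libraries at 2 mM and 61.1, 67.7 and 66.7 CPM in the GFP libraries at 11 mM. With ChREBPβ it was at 74.2, 74.1 and 74.7 CPM at 2 mM and at 75.6, 75.1 and 77.9 CPM at 11 mM. The group with GFP at 11 mM was below the other 3, which lay close together. The log2 difference of Klf9 with glucose in GFP-treated cells was -0.17 (edgeR adjusted p = 0.00726) and that with ChREBPβ at 11 mM was 0.23 (edgeR adjusted p = 0.000305), both under the minimum fold. Without GFP library a at 11 mM the first was -0.12 (edgeR adjusted p = 0.0583). Klf13, which acts in lymphocytes and heart, ranged from 4.01 to 6.84 CPM, both extremes at 2 mM glucose, and its groups overlapped in every comparison. For Klf4, Klf5, Klf7 and Klf13 a library held on average between 137 and 346 counts in a group, which limited the precision. The log2 change of Klf13 with ChREBPβ at 2 mM, for example, had a 95% interval from -0.34 to 0.33.

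**Figure D2:**
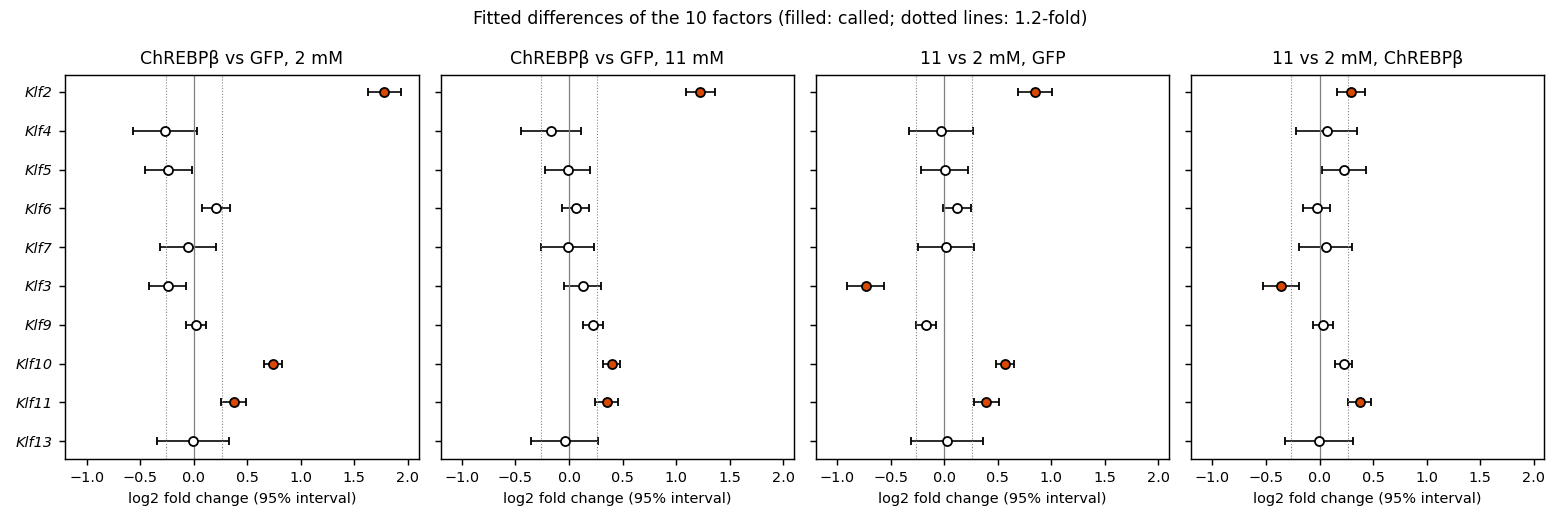
Log2 fold change of the 10 factors in 4 comparisons with 95% intervals (filled points, called; dotted lines, 1.2-fold). Klf2, Klf10 and Klf11 lie to the right in the ChREBPβ comparisons at both glucose levels and in GFP-treated cells given glucose, and Klf3 lies to the left with glucose in cells with either virus.

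The comparison of ChREBPβ at 11 mM with GFP at 2 mM joined both changes. It called 4 members, Klf2, Klf10 and Klf11 higher and Klf3 lower, against 50.5% of all genes in either direction, so the members' share was below the background there. Klf2 was 4.21-fold higher (log2 2.07, edgeR adjusted p = 3.45e-15), Klf10 1.95-fold and Klf11 1.68-fold, and Klf3 fell by 0.61 on the log2 scale (edgeR adjusted p = 1.8e-06). Comparing ChREBPβ at 2 mM with GFP at 11 mM called 2 members, Klf2 and Klf3, both higher, against 27.0% of all genes.

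Whether the effect of ChREBPβ differed between the glucose levels was tested directly as an interaction. It called 2 members, Klf2 and Klf10, against 6.31% of all genes. Both differences were negative, as for 4.74% of all genes, against 1.56% called positive. Txnip (log2 -3.2) and Pklr (-0.61) were also called with a negative difference, and Mlxipl was not called. The direction was therefore not particular to these members. The increase with ChREBPβ was smaller at 11 mM than at 2 mM by 0.55 on the log2 scale for Klf2 (difference -0.55, SE 0.10, edgeR adjusted p = 0.00139) and by 0.34 for Klf10 (difference -0.34, SE 0.06, edgeR adjusted p = 0.000465). On the CPM scale, which was chosen after seeing the data and was not tested, ChREBPβ added 18.3 CPM of Klf2 at 2 mM (SE 0.56) and 18.2 CPM at 11 mM (SE 0.87). The increments of Klf2 were thus alike in CPM and differed in fold. For Klf10 the increments were 62.9 CPM at 2 mM (SE 2.77) and 44.1 CPM at 11 mM (SE 2.42), which differed by 18.9 CPM (difference -18.9, SE 3.68). Klf11 gave 6.67 CPM (SE 0.77) and 8.21 CPM (SE 0.75), and its log2 interaction of -0.02 had a 95% interval from -0.18 to 0.14. The interaction of Klf3 was 0.37 (SE 0.12) and missed the threshold (edgeR adjusted p = 0.0519). That call depended on single libraries, since it passed without GFP library c at 2 mM (0.41, edgeR adjusted p = 0.0474), without GFP library c at 11 mM (0.45, edgeR adjusted p = 0.0347) and without ChREBPβ library a at 2 mM (0.42, edgeR adjusted p = 0.0408).

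**Figure D3:**
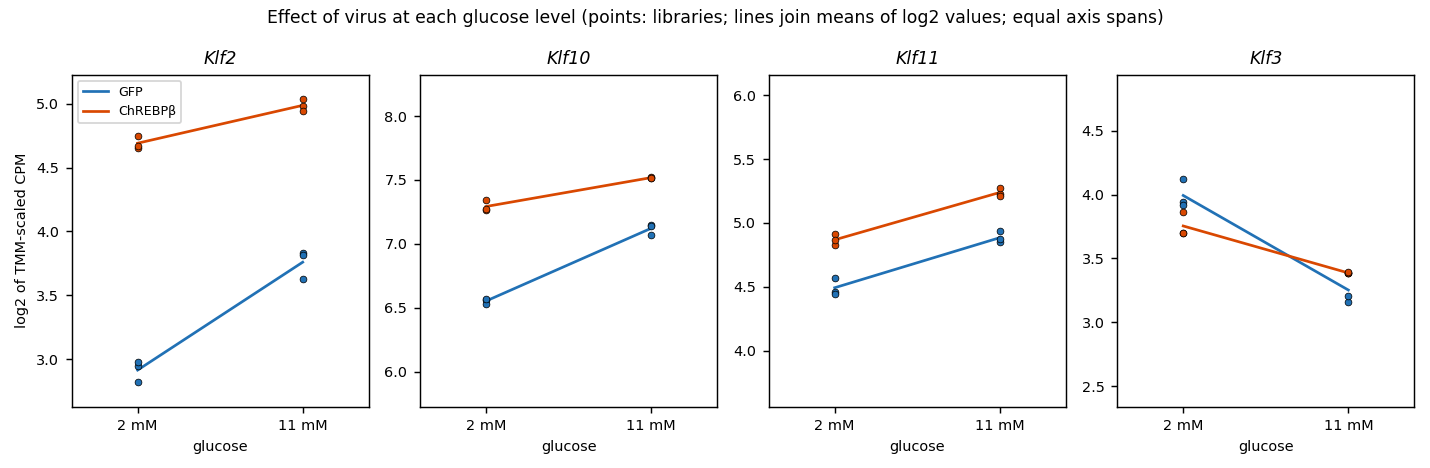
Log2 of the TMM-scaled CPM of Klf2, Klf10, Klf11 and Klf3 against glucose for either virus (points, libraries; lines, means of log2 values; every axis spans the same range). The lines of Klf2 and Klf10 draw together at 11 mM glucose, those of Klf11 run in parallel, and those of Klf3 fall and cross.

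The remaining Krüppel-like and Sp factors were examined beside the members, and none was called higher with ChREBPβ at the same glucose level. Of 16 genes listed, 9 could be tested and the other 7 had at most 3 counts in any library. With ChREBPβ at 2 mM, 0 were called higher and 1 lower (all genes, 21.0% and 23.2%), and at 11 mM 0 higher and 2 lower (all genes, 14.3% and 19.1%). Klf12, another CtBP-binding repressor, was lower with ChREBPβ at 2 mM (4.21 ± 0.72 against 6.81 ± 0.90 CPM with the control virus, SD, n = 3, log2 -0.72, edgeR adjusted p = 0.000409) and at 11 mM (3.92 ± 0.43 against 5.42 ± 0.96 CPM, log2 -0.46, edgeR adjusted p = 0.013). The Klf12 call at 11 mM was lost without GFP library b (log2 -0.31, edgeR adjusted p = 0.0902) and without ChREBPβ library c (log2 -0.40, edgeR adjusted p = 0.055). Sp6, at under 1 CPM and named after its values were seen, was the other gene called at 11 mM (log2 95% interval -1.78 to -0.22, edgeR adjusted p = 0.031). Its call was lost without GFP library b (-0.58), ChREBPβ library b (-0.95) or ChREBPβ library c (-0.91). Sp1 and Sp3, the broadly expressed Sp factors, were not called at either glucose level.

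The cofactors that these proteins recruit mostly stayed within 1.2-fold. Of 10 tested (the CtBP, Sin3, histone deacetylase and acetyltransferase genes), 0 were called at 2 mM and 1 at 11 mM, where 44.1% and 33.4% of all genes were called. An edgeR adjusted p under 0.05 alone was reached by 4 and 3 of them, against 58.7% and 49.7% of all genes. Crebbp, the gene for the acetyltransferase CBP, was at 72.7 ± 7.02 CPM with ChREBPβ and 59.6 ± 8.51 CPM with GFP at 11 mM (SD, n = 3, log2 0.29, edgeR adjusted p = 0.00542). These groups overlapped, and the call was lost without GFP library a (0.24), GFP library c (0.22) or ChREBPβ library a (0.22), and with library totals (0.21).

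Among 16 genes of the signals that act on the members, 14 could be tested. The other 2, Mapk7 for ERK5 and Tgfbr2 for the type 2 TGFβ receptor, had at most 1 count in any library. With ChREBPβ, 3 were called higher and 3 lower at 2 mM, and 4 higher and 2 lower at 11 mM. Of all genes tested, 44.1% were called in either direction at 2 mM and 33.4% at 11 mM, so the 6 of 14 at 2 mM stood near the background and no result about the list is read from these counts. Mef2d, a MEF2 factor, rose from 85.9 ± 3.31 to 152.7 ± 3.17 CPM at 2 mM (SD, n = 3, log2 0.83, edgeR adjusted p = 9.29e-11) and from 118.7 ± 6.83 to 163.1 ± 12.1 CPM at 11 mM (log2 0.46, edgeR adjusted p = 5.41e-07). Mef2c, a second MEF2 factor at a low level, fell at 2 mM from 3.48 ± 0.67 to 1.85 ± 0.10 CPM (log2 -0.93, edgeR adjusted p = 9.71e-05) and at 11 mM from 2.997 ± 0.21 to 1.67 ± 0.20 CPM (log2 -0.84, edgeR adjusted p = 0.000261). These 2 MEF2 genes moved in opposite directions, while Mef2a, named after its values were seen, was not called at either glucose level (log2 -0.26 and -0.06). At 2 mM Mef2a was called lower without GFP library c (-0.31), without ChREBPβ library c (-0.27) and with library totals (-0.36).

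The other called regulators are named because they were few, after their values were seen. Tgfbr1, the type 1 TGFβ receptor gene, was higher by 0.54 at 2 mM (log2, edgeR adjusted p = 1.29e-07) and by 0.44 at 11 mM (edgeR adjusted p = 1.92e-06). Map2k5, the gene for MEK5, was higher by 0.31 and 0.26, and Smad3, a transducer of TGFβ signals, by 0.29 at 11 mM. Map2k5 and Smad3 stood close to the minimum fold. At 2 mM the Map2k5 call was lost without GFP library b (0.26) and with library totals (0.21). At 11 mM it was lost without GFP library b (0.25), ChREBPβ library b (0.24) or ChREBPβ library c (0.26), with library totals (0.18) and with no filter on low counts (0.26). The Smad3 call at 11 mM was lost without GFP library b (0.25) or ChREBPβ library a (0.24) and with library totals (0.21), and at 2 mM it appeared without ChREBPβ library a (0.28). The thyroid hormone receptor genes were lower at 2 mM, Thra by a log2 change of -0.47 and Thrb by -0.47, and at 11 mM only Thrb was called (-0.31). These genes are described by their RNA alone, and their part in the changes of the members was not tested.

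**Figure D4:**
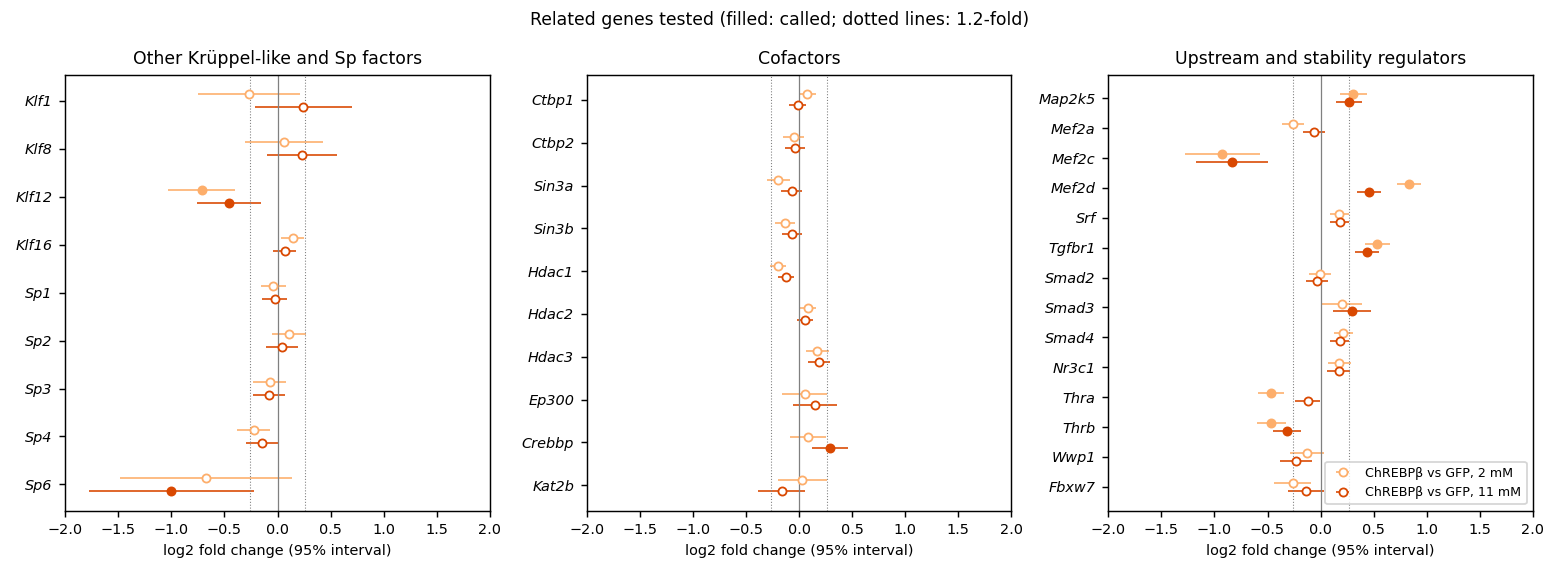
Log2 fold change with ChREBPβ at 2 mM and 11 mM glucose, with 95% intervals, of the tested Krüppel-like and Sp factors outside the members, of cofactors and of regulators (filled points, called; dotted lines, 1.2-fold). Most points of the family and of the cofactors sit within the 1.2-fold lines, while Mef2d and Tgfbr1 lie to the right and Mef2c and Klf12 to the left.

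Across the 12 libraries the rising members followed each other. Pearson's r of log2 CPM was 0.97 between Klf2 and Klf10, 0.94 between Klf10 and Klf11 and 0.88 between Klf2 and Klf11. Klf6, not called in any comparison, also followed them, with r of 0.81 with Klf2, 0.78 with Klf10 and 0.68 with Klf11. Klf3 had r of -0.44 with Klf2, -0.65 with Klf10 and -0.69 with Klf11. These values describe 12 libraries in 4 groups that also differed in depth, and they follow largely from the differences between the groups. Among 9905 other genes, those most like Klf2 were Inpp5f (r = 0.997) and Pde4b (r = 0.996), and those most like Klf10 were Naa25 (0.996) and Tars (0.994). The closest to Klf11 were Mief1 (0.983) and Kpna6 (0.982), and the closest to Klf3 were Ctsl (0.961) and Lima1 (0.958). For the members that moved little the closest genes were less alike. They were Pxylp1 (0.926) and Mbnl2 (0.909) for Klf9, Iws1 (0.919) and Rfx1 (0.904) for Klf6, and Atg13 (0.881) and Tmem70 (0.818) for Klf13. For Klf4 they were Msantd4 (0.864) and Tmem263 (0.848), for Klf5 Zbtb39 (0.851) and Foxc1 (0.83), and for Klf7 Lhx2 (0.838) and Mbd5 (0.769). These are the highest of 9905 values over 12 libraries for each member. Whether they exceed what such a search gives for unrelated genes was not tested.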

How the data were processed

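RNA from INS-1 cells of the 4 groups was submitted to Genewiz, amplified and sequenced. The authors deposited raw read counts per gene without normalization. The authors also deposited each group's mean count, handled here as a signal and used for a check only: it equalled the mean of the 3 count columns in all 28728 entries within 0.001 counts. The submitters' processing notes name the build Rnor_6.0 and edgeR. The aligner and the counting program are not given in the sources used here. RNA was amplified without molecular identifiers, so counts are not independent molecules.

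The 1 entry without a gene name (at most 0.00601% of a library) was left out. In R 4.3.3, edgeR 4.0.16 kept 14669 genes with filterByExpr, scaled counts by TMM (factors 0.958 to 1.06) and fitted all 12 libraries by group with the quasi-likelihood test. There were 7 comparisons, the 6 pairs of groups and the interaction, with Benjamini-Hochberg adjustment over all genes in each. A call needed an adjusted p under 0.05 and 1.2-fold, the minimum fold the study names. Alternatives were DESeq2 1.42.0, other scalings, filters and minimum folds, only the groups compared, a replicate block and leaving out each library.

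The members and gene lists were chosen with earlier results of these data known. Outside the members, the named genes are the 2 called genes per list with the largest change at a mean of at least 1 CPM, and the 2 with the highest r at a mean of at least 5 CPM. Exceptions are stated beside their values. The promoter motifs were searched with Python 3.11.15, and the CACCC box was added after the tables were seen.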

Additional observations from a re-analysis of the deposited data

Results flagged for a closer look

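The effect of ChREBPβ on Klf2 differed between the glucose levels by a direct test of the difference. It was 1.78 on the log2 scale at 2 mM and 1.23 at 11 mM, a difference of -0.55 (SE 0.10, edgeR quasi-likelihood adjusted p = 0.00139 over all genes). The increase was seen in 3 of 3 ChREBPβ libraries at either glucose level, all above every GFP library at the same level. That separation concerns the increase at each level and not the difference between the levels.

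The same test called Klf10, and a negative difference was the more common direction among all genes (4.74% against 1.56%). Its change with ChREBPβ was 0.74 at 2 mM and 0.40 at 11 mM, a difference of -0.34 (SE 0.06, edgeR quasi-likelihood adjusted p = 0.000465). The increments in CPM given with the interaction, which were not tested, were alike for Klf2 and unlike for Klf10. For Klf2 the difference was therefore seen in fold and not in CPM (-0.13 CPM, SE 1.04). A cause was not tested for either gene.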

How the results depend on the processing

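Counts of called members moved by over 1.5 times under 3 settings. With library totals in place of TMM, 6 members were called with ChREBPβ at 2 mM, where 6617 of all 14669 genes were called. With no minimum fold, 5 members were called with ChREBPβ at 2 mM, against 58.7% of all genes. For ChREBPβ at 2 mM against GFP at 11 mM it was 4, against 41.6%. With a minimum of 2-fold, 1 member remained with ChREBPβ at 2 mM (1456 of all genes called) and at 11 mM (992 of all genes). In ChREBPβ at 11 mM against GFP at 2 mM 1 remained as well (1866 of all genes). The glucose comparisons kept 0 members (294 genes with GFP and 28 with ChREBPβ). ChREBPβ at 2 mM against GFP at 11 mM (795 genes) and the interaction (108 genes) also kept 0. No result about the members is read from these counts. Under DESeq2, RLE factors, both filters, fits of only the groups compared and each left-out library, every count stayed within 1.5 times.

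Among 1139 refits of single genes, 1098 gave the same call and direction, 19 lost a call (none of a member), 19 gained a call and 0 reversed. The CPM scale moved 3 values of the interaction (Klf2 -0.13, Klf10 -18.9 and Klf3 3.34 CPM). The interaction of Klf3 passed with DESeq2 (adjusted p = 0.025) and, in edgeR, with RLE factors (0.0445), library totals (0.0473), no filter (0.0483) and the strict filter of 10 counts (0.0463). Klf5 was also called lower with ChREBPβ at 2 mM against GFP at 11 mM with library totals (-0.31, edgeR adjusted p = 0.0193). The cause was not tested. Of 38 differences that passed no test in any fit, 72 of 716 refits gave the other sign, with values from -0.92 to 0.28.

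The letters a to c are shared by the groups, and no source says what a letter marks. Same-letter libraries did not deviate together beyond the limit of 0.1 set for pairing (18 correlations from -0.11 to 0.06), so no pairing was used. A library still correlated best with its own letter in 23 of 36 cases, where 12 would match if the letters carried nothing, a hint from the data and not from the design. The replicate block left the members called at 3, 3, 4, 3, 4, 2 and 2 in the 7 comparisons, in the order of the report, and changed no call of a single gene. Library totals lower the median of all genes by up to 0.12 on the log2 scale. Depth limits the members at about 5 CPM.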
